A study of Mus musculus with 8 samples.

Results

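Expression of 5 genes that the thick ascending limb uses for signalling and for the exit of chloride (Casr, Ptger3, Ppp1r1b, Umod and Bsnd) was examined in kidney cortex with and without the kinase SPAK. The genes were picked by symbol, with earlier results of these data known. Each was measured by 1 probe set annotated with that symbol alone, so all 5 were found among the 19938 genes measured. The mice were 10-week-old male C57Bl6J animals, either with a disrupted Stk39, the gene for SPAK, or littermate wild-type. Each genotype has 4 arrays, here called SPAK KO 1 to 4 and WT 1 to 4. The labels do not say whether the arrays of a genotype come from separate animals. The feed held 0.32% NaCl and 1% KCl in both groups. Neither the disrupted stretch of Stk39 nor the cells that lost it are given, and the study's stated question was which genes might together limit renal salt loss without SPAK. Values are log2 expression values from 1-colour arrays (RMA), 1 array per label, and each difference is SPAK KO minus WT, given with limma's moderated standard error (SE).

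The thick ascending limb takes up salt through the Na-K-2Cl cotransporter Slc12a1 at its luminal face, which SPAK and its relative OSR1 can phosphorylate. Potassium recycles to the lumen through Kcnj1, and chloride leaves towards the blood through channels that need barttin, the product of Bsnd, to reach the membrane and open. The resulting voltage drives calcium and magnesium between the cells through pores of claudin-16 and claudin-19. The calcium-sensing receptor (Casr) and the prostaglandin E2 receptor EP3 (Ptger3) both restrain this transport. DARPP-32 (Ppp1r1b) blocks protein phosphatase 1 once protein kinase A has phosphorylated it. Uromodulin (Umod), made by these cells and shed into the urine, is the most plentiful protein of normal urine.

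The promoters of Umod and Casr are shown because Umod is the classic product of this segment and Casr was the member that passed the test. The sequences run from 250 bases before to 50 bases after a RefSeq transcript start in GRCm38.p6, on the minus strand for both. Umod lies at chr7:119479213-119479512 and Casr at chr16:36562085-36562384. Capitals mark GTTAAT, a half-site of homeodomain transcription factors.

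Umod: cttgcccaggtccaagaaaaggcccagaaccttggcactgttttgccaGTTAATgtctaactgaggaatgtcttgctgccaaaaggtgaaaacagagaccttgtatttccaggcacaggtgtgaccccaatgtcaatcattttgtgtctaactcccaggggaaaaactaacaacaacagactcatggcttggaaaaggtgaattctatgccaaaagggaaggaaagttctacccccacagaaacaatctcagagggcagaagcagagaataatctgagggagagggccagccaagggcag

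Casr: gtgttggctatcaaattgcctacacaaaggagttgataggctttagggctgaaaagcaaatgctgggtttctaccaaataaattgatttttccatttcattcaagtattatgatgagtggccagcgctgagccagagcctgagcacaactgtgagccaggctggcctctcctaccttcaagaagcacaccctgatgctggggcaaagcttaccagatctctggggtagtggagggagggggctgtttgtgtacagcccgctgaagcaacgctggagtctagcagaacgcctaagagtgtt

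Of 3 motifs searched on both strands (GTTAAT, the Sp1 box GGGCGG and the AP-1 site TGANTCA), Umod held 1, GTTAAT, beginning 202 bases before the start. That motif was in 7.1% of 32851 promoters of the same length. Casr held none of the 3. The Ptger3 promoter held 3 copies of GGGCGG, a motif found in 35.7% of promoters. No motif overlapped another, and a match of letters is a description of the sequence only.

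The arrays did not vary equally within the groups. A gap of over 0.4 log2 units between arrays was found in 1 to 10 of 6297 brighter genes (mean above 8) for any pair of SPAK KO arrays. It was found in 3 for WT 2 with WT 3, and in 119 to 228 for the remaining WT pairs. WT means ± SD therefore count WT 2 and WT 3 as 1 sample (n = 3), SPAK KO levels are given array by array with no SD, and p-values over 8 arrays rest on a spread that may be technical. Counting agreeing arrays once left 1 SPAK KO sample, and limma then called 0 of 19938 genes, with 618 at an unadjusted p under 0.05. Stk39 read 7.21, 6.98, 6.79 and 7.10 on the SPAK KO arrays, against 8.36, 8.51, 8.60 and 8.11 on the WT arrays, and the groups did not overlap.

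Casr was the 1 member of 5 that passed the test (limma, Benjamini-Hochberg adjusted p under 0.05 over all genes), as higher in SPAK KO, beside 1.39% of all genes that passed as higher and 0.682% as lower. All 5 differences were above 0, as were 45.8% of those of all genes, and their median was 0.16, beside −0.013 over all genes. In Casr, Ppp1r1b and Umod, 3 members, every SPAK KO array lay above every WT array, as it did in 6.9% of all genes. Ptger3 and Bsnd overlapped between the genotypes. Since the members were chosen with earlier results known, these counts are descriptions and not a test against all genes. Each difference was small, from 1.06-fold for Ptger3 to 1.24-fold for Casr. In whole cortex, more cells of a type and more RNA per cell cannot be told apart.

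**Figure D1:**
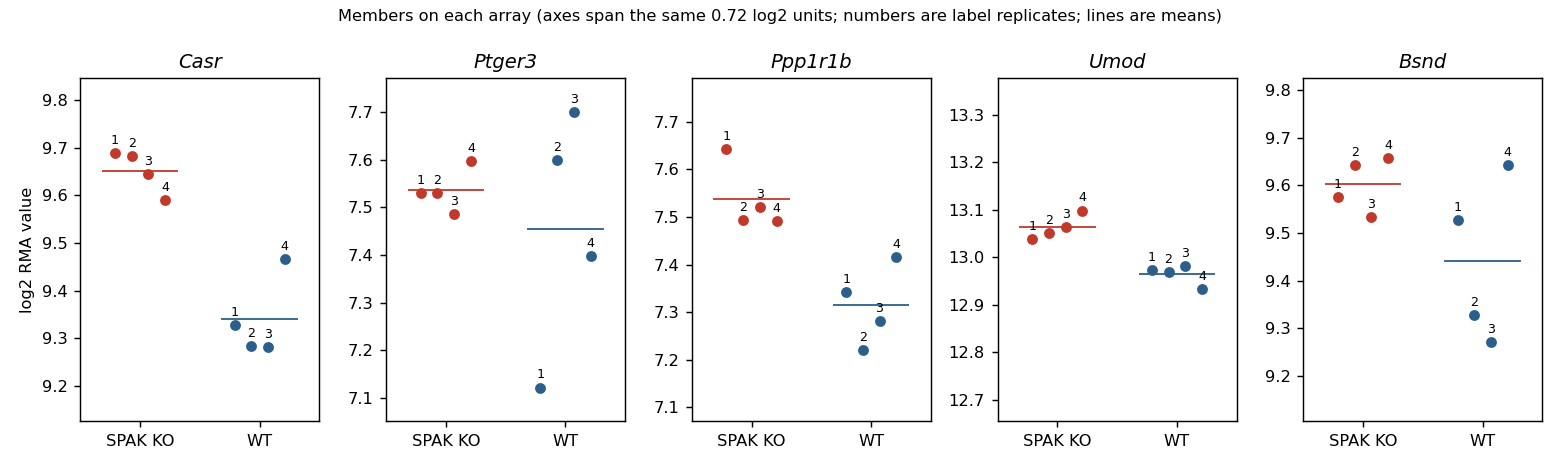
Log2 RMA value (vertical axis) of the 5 members on each array, SPAK KO left of WT in each panel, with the mean of the 4 arrays as a line and the replicate number beside each point. Casr, Ppp1r1b and Umod do not overlap between genotypes, whereas the WT arrays of Ptger3, from 7.12 to 7.70, enclose all SPAK KO arrays.

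Among the receptors, Casr read 9.69, 9.68, 9.65 and 9.59 on SPAK KO arrays 1 to 4, against 9.33, 9.28, 9.28 and 9.47 on WT arrays 1 to 4. The lowest SPAK KO array stood above the highest WT array, WT 4, and WT averaged 9.36 ± 0.10 (SD, n = 3). SPAK KO exceeded WT by 0.31 ± 0.06 (SE over 8 arrays, limma adjusted p = 0.0224), with a 95% interval of 0.19 to 0.44, and 1.85% of all genes had a difference as high. The call did not hold in every fit. It held without WT 1 (limma adjusted p = 0.0395) and without WT 4 (0.00825), but not without SPAK KO 1, 2, 3 or 4 (limma adjusted p = 0.0782, 0.0693, 0.0668 and 0.0501), without WT 2 (0.0689) or without WT 3 (0.0627). With WT 2 and WT 3 averaged, the difference was 0.29 and did not pass (limma adjusted p = 0.0599).

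Of 11 genes of calcium sensing, from the receptor through its G proteins to the claudins it acts on, 2 were higher, Casr and Cldn16, 0 lower and 9 did not pass. The list's median was −0.027. Cldn16, the calcium and magnesium pore protein, read 9.58, 9.62, 9.52 and 9.54 in SPAK KO, against 9.28, 9.23, 9.25 and 9.25 in WT. Its difference was 0.32 ± 0.05 (limma adjusted p = 0.00854), and it passed whichever array was left out (8 of 8 fits). Cldn19, the partner of claudin-16, gave 0.24 ± 0.05 and did not pass (limma adjusted p = 0.0534, or 0.0202 without WT 1). Cldn14, the claudin that calcium-sensing receptor activity induces and that blocks this pore, gave −0.18 ± 0.07 with overlapping groups, from 6.04 to 6.281 in SPAK KO and from 6.276 to 6.51 in WT (limma adjusted p = 0.204). Gna11, a G protein through which the receptor signals, gave −0.06 ± 0.05, or 0.0005 with arrays centred on their median (limma adjusted p = 0.532 and 0.997).

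Ptger3 was the member with the widest spread in WT. It read 7.53, 7.53, 7.49 and 7.60 on SPAK KO arrays 1 to 4, against 7.12, 7.60, 7.70 and 7.40 on WT arrays 1 to 4. WT 1 was lowest and WT 3 highest, and every SPAK KO array fell between them. WT averaged 7.39 ± 0.26 (SD, n = 3). The difference was 0.08 ± 0.11 (limma adjusted p = 0.713), with a 95% interval of −0.16 to 0.32. Without WT 1 it was −0.029, and with WT 2 and WT 3 averaged 0.15 (limma adjusted p = 0.866 and 0.499).

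None of the 11 measured prostaglandin E2 genes passed, while 10 had a difference above 0 and the list's median was 0.13. Among the other receptors, EP4 (Ptger4) gave 0.13 ± 0.06, and EP1 (Ptger1) gave 0.07 ± 0.10, or −0.010 without WT 2. EP2 (Ptger2), the exception to the sign, gave −0.07 ± 0.07 at low values from 3.80 to 4.08 in SPAK KO and from 3.99 to 4.08 in WT. The synthase genes Ptges and Ptgs2 gave 0.15 ± 0.06 and 0.13 ± 0.10. The smallest p on the list was that of Slco2a1, a prostaglandin uptake transporter, at 0.17 ± 0.05 (limma adjusted p = 0.126).

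Ppp1r1b, which acts inside the cell, read 7.64, 7.49, 7.52 and 7.49 on SPAK KO arrays 1 to 4, against 7.34, 7.22, 7.28 and 7.42 on WT arrays 1 to 4. The groups did not overlap, SPAK KO 1 was the highest array and WT 4 came nearest to the SPAK KO values. WT averaged 7.34 ± 0.08 (SD, n = 3). The difference was 0.22 ± 0.06 with a 95% interval of 0.09 to 0.35, and it did not pass over all genes (limma adjusted p = 0.0904). It passed in 0 of 8 fits with an array left out. It passed with genes of a mean under 6 left out (limma adjusted p = 0.0473) or below the median level left out (0.0388). It also passed with arrays centred on their median (limma adjusted p = 0.0317), which shifts the difference of every gene by the same amount. Quantile normalization applied again and cyclic loess gave 0.18 and 0.20, and neither passed (limma adjusted p = 0.132 and 0.102).

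In the cAMP and phosphatase 1 list, 17 genes were measured, 0 passed, 13 were above 0 and the median was 0.07. Ppp1r1a encodes inhibitor-1, the closest relative of DARPP-32. It read 9.98, 9.85, 9.85 and 9.87 in SPAK KO, against 9.56, 9.72, 9.74 and 9.95 in WT, so WT 4 exceeded 3 of the SPAK KO arrays. Its difference was 0.15 ± 0.08 (limma adjusted p = 0.328). Adcy6, an adenylyl cyclase that makes cAMP in this segment, had the smallest p of the list, with 8.52 to 8.60 in SPAK KO and 8.22 to 8.43 in WT. Its difference of 0.24 ± 0.06 did not pass (limma adjusted p = 0.0772, or 0.0447 without WT 4).

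**Figure D2:**
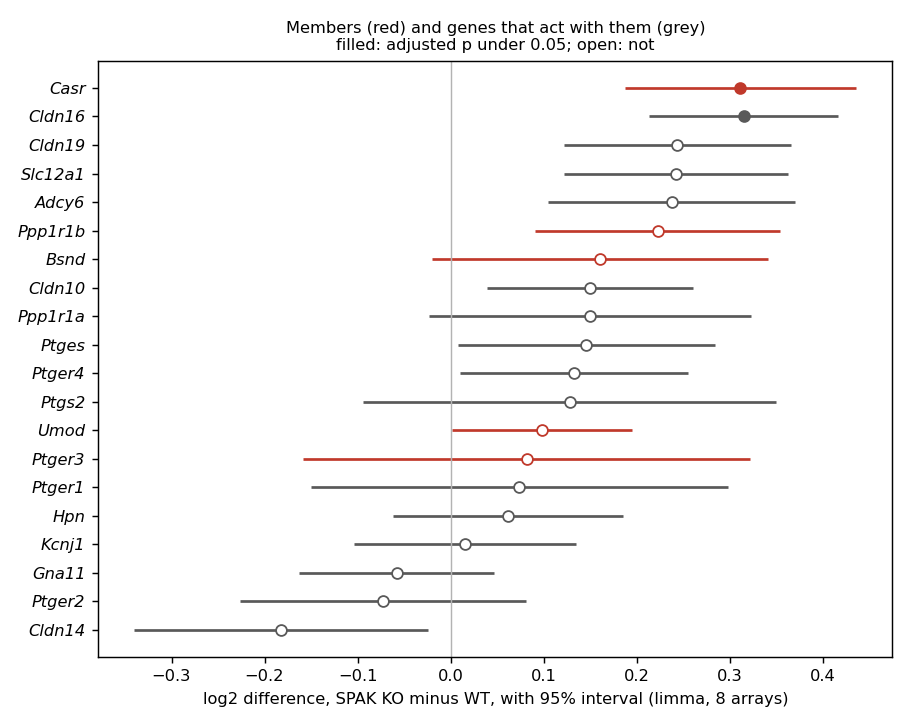
Log2 difference, SPAK KO minus WT, with its 95% interval (horizontal axis) for the 5 members in red and for 15 genes that act with them in grey. Filled points, Casr and Cldn16, passed at an adjusted p under 0.05, and the intervals of Bsnd and Ptger3 include 0.

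Umod, the secreted product, read 13.04, 13.05, 13.06 and 13.10 on SPAK KO arrays 1 to 4, against 12.97, 12.97, 12.98 and 12.93 on WT arrays 1 to 4. The groups did not overlap, and the SPAK KO and WT arrays spanned 0.06 and 0.05, the narrowest ranges of the 5 members in both groups. WT averaged 12.96 ± 0.02 (SD, n = 3). The difference was 0.10 ± 0.04, or 1.07-fold, with a 95% interval of 0.0016 to 0.19, and it did not pass (limma adjusted p = 0.256). A difference as high was found in 16.9% of all genes. With arrays centred on their median, which shifts every gene alike, the Umod difference was 0.16 (limma adjusted p = 0.101). Of the 8 measured genes linked to uromodulin by processing, regulation or SPAK signalling, Stk39 was lower, 0 were higher and 7 did not pass. Hpn, the protease hepsin that releases uromodulin from the membrane, gave 0.06 ± 0.06 with overlapping groups, 10.84 to 10.99 in SPAK KO and 10.75 to 10.92 in WT (limma adjusted p = 0.578).

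Bsnd read 9.57, 9.64, 9.53 and 9.66 on SPAK KO arrays 1 to 4, against 9.53, 9.33, 9.27 and 9.64 on WT arrays 1 to 4. WT 1 and WT 4 lay near the SPAK KO arrays while WT 2 and WT 3 lay below them. WT averaged 9.49 ± 0.17 (SD, n = 3). The difference was 0.16 ± 0.08 with a 95% interval of −0.02 to 0.34 and did not pass (limma adjusted p = 0.317). It was 0.10 without WT 3, 0.23 without WT 4 and 0.11 with WT 2 and WT 3 averaged (limma adjusted p = 0.494, 0.122 and 0.495).

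Of the 5 measured genes of basolateral chloride and potassium exit, Bsnd included, 0 passed and the median was 0.023. Kcnj10, a basolateral potassium channel of the distal nephron, had the smallest p, at 0.12 ± 0.06 (limma adjusted p = 0.272). Barttin is also made by intercalated cells, and 4 of 7 markers of those cells were higher in SPAK KO and 0 lower. They were the chloride/bicarbonate exchanger gene Slc26a4 (0.65 ± 0.08) and 3 genes for subunits of the proton pump, Atp6v0d2 (0.36 ± 0.05), Atp6v1c2 (0.44 ± 0.07) and Atp6v1g3 (0.52 ± 0.07). Atp6v1c2 did not pass without SPAK KO 1, 2 or 3, and the others passed whichever array was left out. The remaining 3 markers did not pass. Of the 7, 6 were above 0, and Slc4a1 was below it at −0.15 (limma adjusted p = 0.509). The mean log2 level of the 7 markers was 9.54 to 9.60 on SPAK KO arrays and 9.13 to 9.35 on WT arrays, and its part in the Bsnd values was not tested.

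Beyond the members, 8 other thick ascending limb markers were measured, from a list also chosen with earlier results known. Cldn16 was the 1 called, as higher, 6 were above 0, and their median difference was 0.17. Their mean log2 level was 10.00 to 10.02 on the SPAK KO arrays, against 9.87 to 9.95 on the WT arrays, without overlap, and its part in the members' differences was not tested. Slc12a1 read 10.87, 10.98, 10.90 and 10.90 in SPAK KO, against 10.62, 10.64, 10.63 and 10.79 in WT, and gave 0.24 ± 0.05 (limma adjusted p = 0.0520, or 0.0197 without WT 4). Cldn10, a paracellular sodium pore, gave 0.15 ± 0.05 and Kcnj1 0.016 ± 0.05 (limma adjusted p = 0.147 and 0.898). Kcnj1 gave −0.0082 with quantile normalization applied again and −0.011 with cyclic loess. Cldn14 and Sostdc1, a secreted BMP antagonist that was named after its value was seen, were the 2 below 0. Sostdc1 gave −0.024 ± 0.10, and 0.035 with arrays centred on their median.

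**Figure D3:**
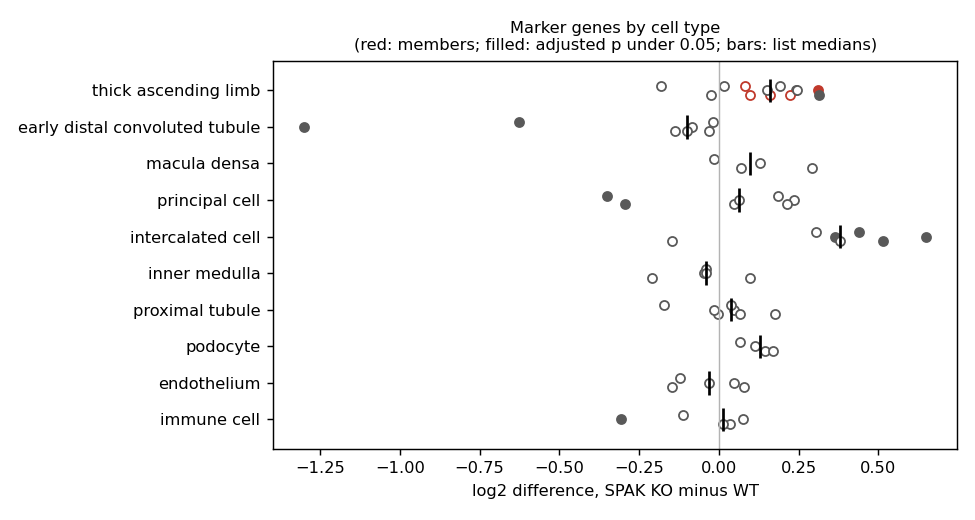
Log2 difference, SPAK KO minus WT (horizontal axis), of each measured marker gene by cell type, with list medians as bars. Members are red, and filled points passed at an adjusted p under 0.05. The thick ascending limb list has 2 filled points to the right of 0, the intercalated cell list 4, and the early distal convoluted tubule list 2 to the left.

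Of 7 early distal convoluted tubule markers, a segment that also makes some uromodulin, 2 were lower, the calcium-binding protein gene Pvalb (−1.30 ± 0.09) and the magnesium channel gene Trpm6 (−0.63 ± 0.10), and 0 of the 7 were above 0. The other 5 did not pass, Slc12a3 among them (−0.14, limma adjusted p = 0.183), and the list's median was −0.10. The mean level of the 7, Pvalb and Trpm6 included, was 9.16 to 9.23 in SPAK KO and 9.48 to 9.56 in WT. Inner medulla markers had 0 of 5 called, a median of −0.04, and mean levels of 6.15 to 6.26 in SPAK KO and 6.22 to 6.27 in WT. These markers do not track outer medulla, so how much of it the dissection took along was not tested. Slc14a2, a urea transporter gene of the inner medulla, had the smallest p of that list at −0.21 ± 0.05 (limma adjusted p = 0.0821). Of 4 macula densa markers 0 passed, with the vasopressin receptor gene Avpr1a at 0.29 ± 0.08 (limma adjusted p = 0.110). Of 7 principal cell markers, 2 that encode water channels were lower, Aqp4 (−0.35 ± 0.07) and Aqp2 (−0.29 ± 0.06). Each passed in 1 of 8 fits with an array left out, that without WT 4. Aqp4 was dim, at 5.09 to 5.31 in SPAK KO and 5.48 to 5.75 in WT, below the filter mean of 6. Aqp4 also did not pass with arrays centred on their median, with quantile normalization applied again or with cyclic loess (limma adjusted p = 0.0607, 0.144 and 0.121), nor Aqp2 with centring (0.0881). The other 5 principal cell markers were above 0 and did not pass, with Aqp3 at 0.23 (limma adjusted p = 0.0761). The median of the 7 was 0.06. In proximal tubule, podocyte and endothelium lists 0 passed, with medians of 0.039, 0.13 and −0.029. Their smallest p-values were those of the glucose transporter gene Slc5a2 (−0.17 ± 0.07), the podocyte transcription factor gene Wt1 (0.17 ± 0.05) and the endothelial surface protein gene Emcn (−0.12 ± 0.05). In the immune cell list 1 of 5 passed, the T cell gene Cd3e, which was lower (−0.31 ± 0.065, passing in 1 of 8 fits with an array left out, that without WT 1, and not with centring, repeated quantile normalization or cyclic loess, limma adjusted p = 0.0854, 0.0696 and 0.0727).

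Members were also set against Slc12a1 on the same array, which asks whether a member differed unequally to the cotransporter. In whole cortex the ratio of any member may mix cell types. Intercalated cells, for example, make barttin, and the early distal convoluted tubule some uromodulin. The log2 ratio of Casr to Slc12a1 was −1.18, −1.29, −1.26 and −1.31 in SPAK KO, against −1.29, −1.35, −1.35 and −1.32 in WT. SPAK KO stood 0.069 above WT in this ratio (two-sided exact permutation p = 0.0571, adjusted over the 5 members p = 0.286). For Umod it was 2.17, 2.08, 2.16 and 2.20 in SPAK KO, against 2.35, 2.33, 2.35 and 2.15 in WT, where WT 4 fell among the SPAK KO arrays. SPAK KO stood 0.14 below WT, a difference of −0.14 (exact permutation p = 0.114, adjusted p = 0.286). Ptger3 gave −0.16, Bsnd −0.082 and Ppp1r1b −0.020 (exact permutation p = 0.371, 0.314 and 0.771). None passed. With 4 arrays against 4 the smallest unadjusted p is 0.0286, and a single member at that p would have an adjusted p of 0.143, so no member could have passed alone.

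**Figure D4:**
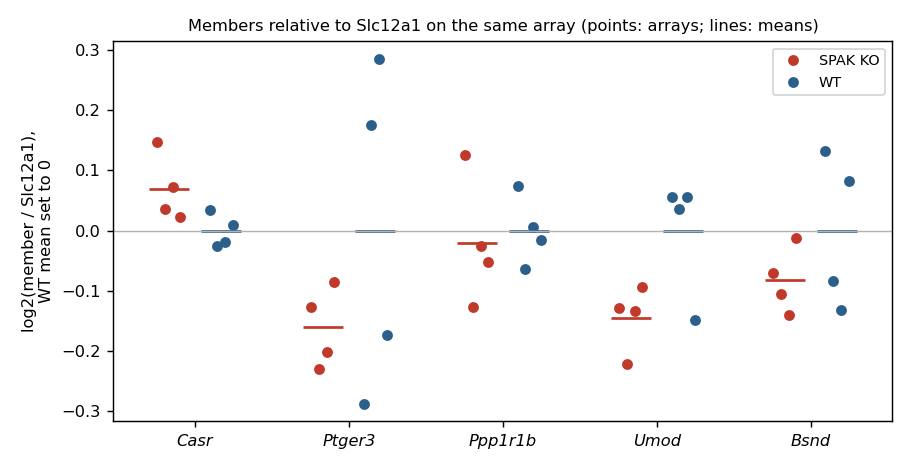
Log2 ratio of each member to Slc12a1 on the same array (vertical axis, WT mean set to 0), with SPAK KO arrays left of WT arrays and means as lines. The SPAK KO arrays of Casr average 0.069 above and those of Umod 0.14 below WT, and in each of the 5 genes the groups overlap.

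For each member the 3 genes with the most similar course over the 8 arrays were named, by the smallest root-mean-square difference after each gene's mean was removed. The matches share a member's values by choice, so their own differences are descriptions, and the 8 points are not independent, since the SPAK KO arrays nearly agree, as do WT 2 and WT 3. Casr was nearest to Slc25a48, a mitochondrial carrier gene, at 0.031 (its own SD over the arrays being 0.17), then to the adhesion molecule gene Alcam at 0.039 and to Olfm1 at 0.040. Their differences were 0.35 ± 0.06 for Slc25a48, 0.28 ± 0.07 for Alcam and 0.28 ± 0.06 for Olfm1. Ppp1r1b was nearest to the Wnt co-receptor gene Lrp5, to Tspan33 and to Sowahc, at 0.020, 0.022 and 0.034 against its own SD of 0.13.

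Ptger3, with its low WT 1, was nearest to the cell cycle kinase gene Wee1, to Cldn12 and to the mitochondrial ribosome gene Mrpl50, at 0.038, 0.040 and 0.043 against its own SD of 0.16. Bsnd was nearest to the chemokine gene Cxcl12, to Pxdc1 and to Lonrf1, at 0.046, 0.046 and 0.047 against an SD of 0.14. Umod, whose own SD was 0.053, was nearest to the DNA repair gene Aplf, to 4931406C07Rik and to Taf4, at 0.017, 0.020 and 0.020.

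**Figure D5:**
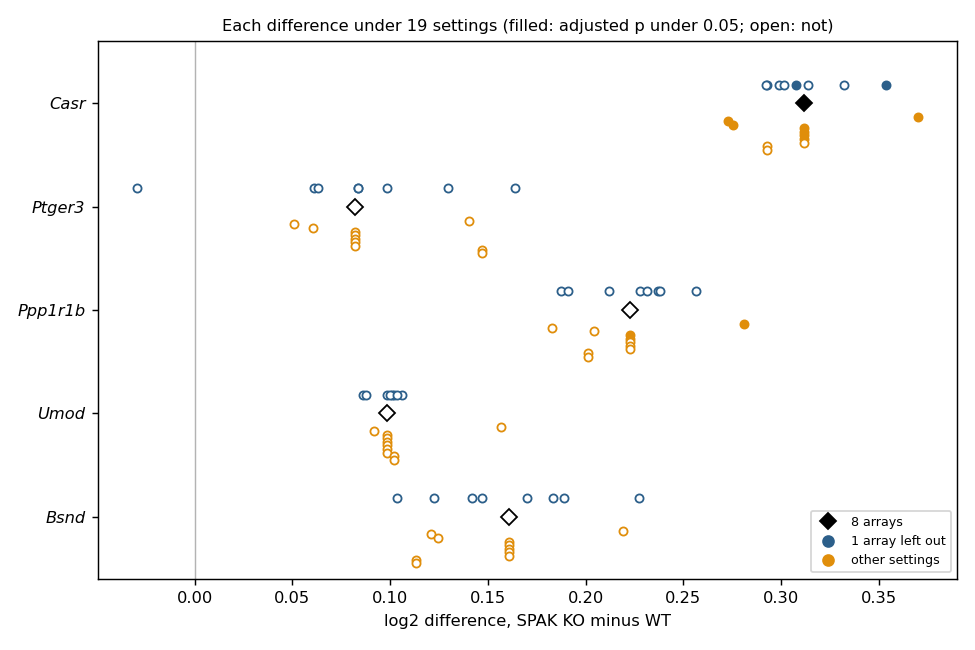
Log2 difference, SPAK KO minus WT (horizontal axis), of each member in the 8-array fit (diamond), in 8 fits without a given array (blue) and in 10 other settings (orange), with filled points at an adjusted p under 0.05. Casr keeps 0.27 or more throughout, Ppp1r1b 0.18 or more, and Ptger3 is the member with a point below 0, at −0.029.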

How the data were processed

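The authors deposited log2 values summarised per probe set by RMA (background subtraction, normalization between arrays, probe summary) with Expression Console of Affymetrix, per the submitters' processing notes. Its version, the build and any filters are not given in the sources used here. There were 35556 probe sets and 0 missing values. Exactly 1 symbol was given for 21789 of them, and per gene the probe set with the highest mean was used. Array medians were 6.09 to 6.12 in SPAK KO and 6.13 to 6.19 in WT. No detection call comes with the values, and the number of arrays limits the precision.

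The test was limma 3.58.1 under R 4.3.3 (lmFit and eBayes, genotype alone), with Benjamini-Hochberg adjustment over 19938 genes. The fit was tested on simulated data with independent arrays and equal spread in both groups. That test therefore does not vouch for p-values from arrays that nearly agree. Genes named are the members, Stk39, 17 fixed partners (those measured), up to 4 called genes or else the smallest p per list, and 3 similar genes per member; Kcnj1 and Sostdc1 were added. Members and lists were chosen with earlier results of these data known. Alternatives changed the normalization, the filter on dim genes, the probe set rule, the variance model and the arrays counted, and the closing section gives their effect. The ratio to Slc12a1 used an exact permutation test. Deviations of same-numbered arrays from their group means had correlations of 0.07, 0.10, −0.07 and 0.19. Those of the other pairs ran from −0.23 to 0.17. This does not settle whether the numbers pair the arrays, and they were not taken as pairs. Promoters are RefSeq's (GRCm38.p6), from a supplied table in which 3 of the 5 members were matched.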

Additional observations from a re-analysis of the deposited data

Results flagged for a closer look

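In 53 genes and both groups of 4 arrays, 5 values stood apart from their group by Dixon's criterion, and chance gives about 1 in 20 groups. None was a member. Slc12a1 was high on WT 4 (10.79, the other WT arrays 10.62 to 10.64), and the ratio of Umod to it was the lowest of the WT arrays there. Ptger4 was low on WT 2 (6.31, others 6.48 to 6.51), and Sostdc1 was low on WT 1 (10.40, others 10.83 to 10.92), the array on which Ptger3 was also lowest. Aqp4 was high on WT 4 (5.75, others 5.48 to 5.50). Pxdc1, the second match of Bsnd, was low on SPAK KO 3 (5.87, others 6.04 to 6.07).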

How the results depend on the processing

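In 18 alternative settings Casr, Ppp1r1b, Umod and Bsnd stayed above 0 and ranged over 0.27 to 0.37, 0.18 to 0.28, 0.09 to 0.16 and 0.10 to 0.23. Casr passed in 9 of them, Ppp1r1b in 3 and Umod, Bsnd and Ptger3 in 0. Some of the settings could alter the p-value of a member but not its difference, so the sign there was fixed. These were both filters on dim genes, the mean of all probe sets, trend and robust eBayes and the replicate block.

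Leaving out 1 array at a time gave Casr 0.29 to 0.35, Ptger3 −0.0294 to 0.164, and 156 to 625 called genes against 414 over 8 arrays. The count was 156, 197, 188 and 164 without SPAK KO 1 to 4, 182 without WT 2, 251 without WT 3 and 625 without WT 4. It was 761 with arrays centred on their median (88.4% higher instead of 67.1%), 664 and 761 with a mean under 6 or below the median level left out, where fewer genes were tested, and 767 with trend and robust eBayes. It was 253 with WT 2 and WT 3 averaged and 0 with agreeing arrays counted once, where 1 SPAK KO sample is assumed to vary like WT and the smallest adjusted p was 0.0583. Casr was then 0.29 in both fits and not called. Ppp1r1b passed at 0.28 with centring and at 0.22 with either filter. Centring raised the difference of every gene by the same amount, and moved the median over all genes from −0.013 to 0.046.

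The replicate block, with numbers not known to pair the arrays, left 174 calls. In that fit Casr at 0.31 did not pass (limma adjusted p = 0.0862), nor did Cldn16 at 0.32 (0.0517), Trpm6, Aqp4, Aqp2, Atp6v1c2 or Cd3e.

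Ppp1r1b relative to Slc12a1 ranged over −0.068 to 0.0163 with 1 array left out and was 0.0419 against the mean of Slc12a1, Kcnj1, Cldn10 and Cldn16. Near 0, signs turned for Gna11 (0.0005 with centring), Kcnj1 (−0.0082 with quantile normalization, −0.0107 with cyclic loess, −0.0181 to 0.0512 with 1 array left out), Sostdc1 (0.0349 with centring, 0.0108 with WT 2 and WT 3 averaged or agreeing arrays counted once, −0.145 to 0.0289 with 1 array left out) and Ptger1 (−0.0101 to 0.155 with 1 array left out). With 1 array left out Wee1, Cldn12 and Mrpl50 ranged over −0.0377 to 0.164, −0.0305 to 0.125 and −0.0616 to 0.0999, each lowest without WT 1. The causes were not tested. Dim genes have no stated floor, so low values such as those of Ptger2 and Aqp4 may understate differences.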
